A study of Mus musculus with 20 samples.

Results

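Microglia sorted from the mouse spinal cord 1 week after a lateral hemisection (HS) were compared with microglia from non-injured (NI) cord, gene by gene. The members were taken by label: 2 HS 1 week and 3 NI libraries, 5 of the 20 libraries of the series, and all 16810 genes of the deposited table. The other libraries came from HS at 72 h and 2 weeks and from full transection (FT) at 72 h, 1 week and 2 weeks. All mice were males of the CX3CR1+/eGFP genotype, heterozygous for an enhanced green fluorescent protein (eGFP) cassette in Cx3cr1, and were kept on a C57BL/6 background. The injury was made at 12 weeks of age at thoracic level 9, and eGFP-high cells were sorted from a 1 cm segment around the lesion, or from the matching thoracic segment in NI mice. NI mice carried the same Cx3cr1 allele but no lesion, and no sham-operated group was analysed here. The cassette also marks monocytes and tissue macrophages, so the sort selected an eGFP level and not a lineage. How many mice entered each library was not stated. The methods give totals for NI and for HS over all stages, the NI total being the larger, so libraries may pool unequal numbers of mice. The p-values therefore measure the spread between these libraries, which may be partly technical.

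Microglia are the resident macrophages of the central nervous system. In the intact cord they carry a set of surveillance genes, among them the purine receptor P2ry12 and Tmem119. Around damaged tissue and myelin debris, microglia are known to switch on a programme of lipid uptake, lysosomal and matrix genes that was first described in models of neurodegeneration as the disease-associated state. Type I interferons form a separate arm: they act through the kinases Jak1 and Tyk2 and factors that include Stat2 and Irf9, which bind a short DNA element before interferon-stimulated genes.

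The values are normalised read counts in CPM, reads scaled by library size, and single values are given in the order NI replicates 1, 2 and 3, then HS replicates 1 and 2. The libraries held 6.04 to 13.9 M counted reads, so that 1 read was worth 0.0596 to 0.136 CPM. Values under 0.179 to 0.408 CPM, which is what 3 reads were worth in the 5 libraries, carry little information, and this floor covers counting error only. A gene is called differentially expressed (DE) where limma gave an adjusted p (Benjamini-Hochberg, all genes) below 0.05 together with a change of at least 2-fold. Changes are differences of log2(CPM + 0.5) between group means, given with their standard error, and understate the change of genes near the floor.

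The sorted cells carried the genes of the gate. Cx3cr1 was read at 2017, 1997 and 2040 CPM in NI and at 2011 and 1607 CPM in HS (log2 change -0.17 ± 0.37, adjusted p = 0.926). Aif1, which encodes the microglial protein IBA1, stood at 490 to 635 CPM in NI and 688 and 811 CPM in HS, and the groups did not overlap although the test was not passed (adjusted p = 0.561). Of the 9 core microglia genes in the table, 0 were DE in limma and in the edgeR and DESeq2 tests. In 3 of them the unadjusted p was under 0.05, against 12.8% of all genes. Quantile normalization or columns scaled to the same total gave 2 lower calls in this list.

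One week after HS, 367 of 16810 genes (2.18%) were DE against NI. Of these, 286 (1.7% of all genes) were higher and 81 (0.482%) were lower in HS. In all 367 DE genes both HS values lay beyond every NI value, which was so for 37.3% of all genes. Since the DE genes were selected on these same values, the separation is no further support. At an unadjusted p under 0.05 stood 2147 genes (12.8%), and the median change over all genes was 0.022. With only 2 HS libraries the count rested on both: 166 genes were DE without HS replicate 1 and 172 without HS replicate 2. The share of DE genes that were higher was 77.9%, but 65.5% after quantile normalization and 53.3% when the columns were scaled to the same total, which moved the median of all genes to -0.166.

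**Figure D1:**
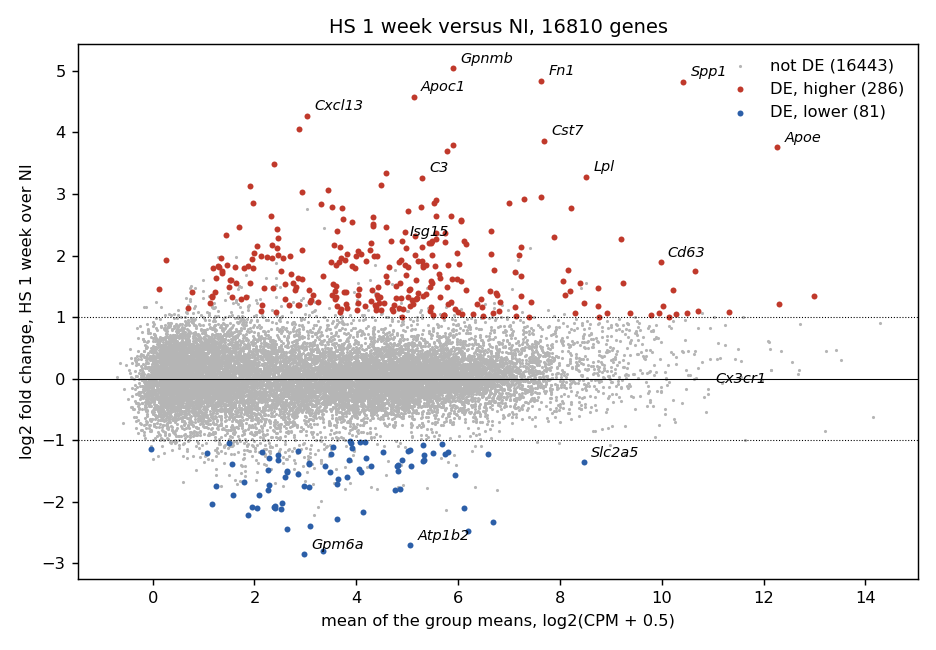
Change between HS 1 week and NI (log2) against the mean of the group means, log2(CPM + 0.5), for 16810 genes, with DE genes coloured by direction. The 286 higher DE genes reach a log2 change of 5.04 (Gpnmb), the 81 lower ones end at -2.86 (Gpm6a), and Cx3cr1 lies near 0.

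Genes of the disease-associated programme made up 7 of the 15 largest rises. Of the 25 genes of that list, 17 were DE and higher, against 1.7% of all genes, and 0 were lower. In both HS libraries 24 lay above all NI values, where 20.2% of all genes did. The median of the list was 1.89, against 0.022 for all genes. Members of this and the other lists were chosen with earlier results of these data known, so shares of all genes give a scale and no test. Gpnmb, a lysosomal membrane glycoprotein, was read at 2.80, 2.57 and 3.36 CPM in NI and at 144 and 86.0 CPM in HS, a 33.0-fold rise (log2 change 5.04 ± 0.33, adjusted p = 3.58e-09). Spp1, which encodes the secreted matrix protein osteopontin, went from 79.4, 94.8 and 108 CPM to 2482 and 2836 CPM (4.82 ± 0.28, adjusted p = 5.66e-10). Both HS libraries were far above all NI libraries for both genes.

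Cst7, an inhibitor of lysosomal cathepsins, was at 20.3, 24.8 and 34.0 CPM in NI and at 329 and 445 CPM in HS (3.87 ± 0.30). Igf1, a growth factor for neurons and oligodendrocytes, held 8.34, 5.79 and 8.73 CPM in NI and 110 and 112 CPM in HS (3.80 ± 0.29, adjusted p = 2.44e-08). The HS libraries differed by less than the NI libraries for this gene. Clec7a, a lectin receptor for fungal glucans, changed from 63.7, 79.4 and 84.5 CPM to 547 and 486 CPM (2.77 ± 0.25), and Axl, a receptor tyrosine kinase for apoptotic cells, from 66.9, 86.4 and 82.9 CPM to 413 and 366 CPM (2.31 ± 0.25). The integrin subunit Itgax was at 13.9, 16.1 and 15.8 CPM in NI and at 71.9 and 71.6 CPM in HS (2.20 ± 0.31). Cd63, a tetraspanin of late endosomes, rose 3.70-fold from 451, 364 and 474 CPM to 1478 and 1695 CPM.

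Lgals3 (2.73), Csf1 (2.03), Fabp5 (1.84) and Ank (1.25) were also DE. Ank lost its call without HS replicate 1 (adjusted p = 0.0659). The cathepsin genes moved less: Ctsb was at 5296, 4568 and 4039 CPM in NI and at 12213 and 11043 CPM in HS (1.33 ± 0.36, adjusted p = 0.0459), and Ctsl was at 1235, 972 and 1020 CPM and at 2051 and 2529 CPM (1.09 ± 0.28, adjusted p = 0.0329). Each lost its call when either HS library was left out (adjusted p of 0.121 to 0.368 for Ctsl and Ctsb). They lost it as well without NI replicate 2 or 3 (0.112 to 0.172), and Ctsb also without NI replicate 1 (0.0811). After quantile normalization both were under 2-fold (0.78 for Ctsb, adjusted p = 0.161, and 0.73 for Ctsl), as was Ctsl with columns scaled to the same total (0.88). Ctsb was not DE either with 1 CPM added, with median-of-ratios scaling or with a replicate block (0.0528 to 0.0839). Ctsd, with 13521 to 14524 CPM in NI and 28122 and 24230 CPM in HS, did not pass the test (0.90 ± 0.42, adjusted p = 0.366).

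**Figure D2:**
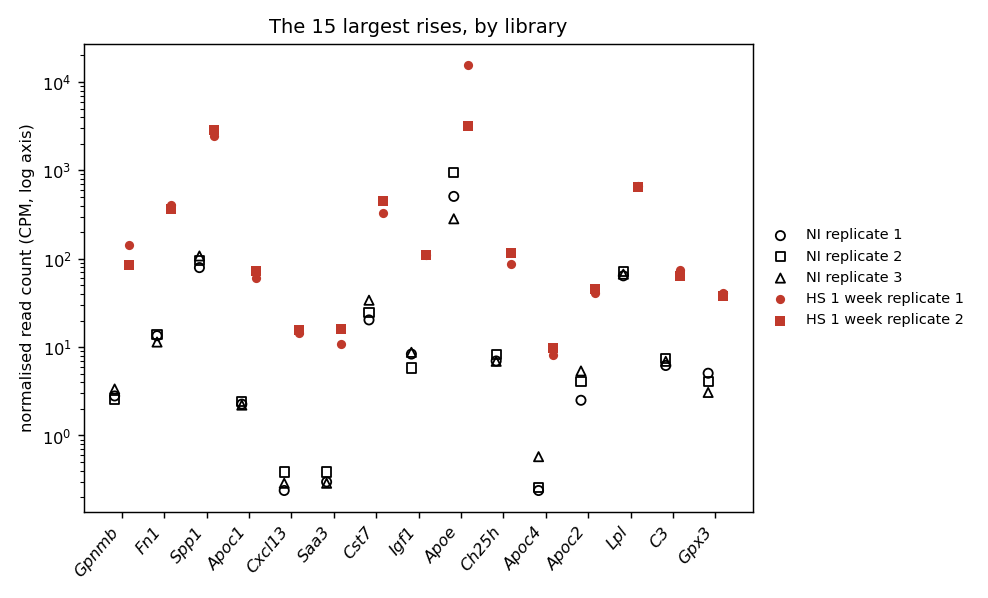
Normalised read count (CPM, log axis) of the 15 largest rises in each of the 3 NI libraries (open) and 2 HS 1 week libraries (red). Both HS values lie above all NI values for each gene, and Apoe shows the widest gap between the 2 HS libraries, 15505 and 3142 CPM.

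Genes of lipoproteins and cholesterol handling formed the second block. Of 33 genes, 13 were DE and higher, against 1.7% of all genes, 0 were lower, and the median was 0.571. Lpl, the lipase that frees fatty acids from lipoproteins, was at 64.1, 72.5 and 67.0 CPM in NI and at 671 and 654 CPM in HS (3.28 ± 0.25, adjusted p = 2.95e-08). Ch25h, which makes 25-hydroxycholesterol, was at 6.97, 8.24 and 6.91 CPM and at 88.1 and 116 CPM (3.70 ± 0.32). The fatty acid carrier Fabp3 (2.60), the scavenger receptors Olr1 (2.40) and Msr1 (2.12) and the lipid droplet protein Plin2 (1.67) rose too, Plin2 from 70.2, 75.2 and 70.5 CPM to 233 and 228 CPM. The sterol exporters were DE as well: Abcg1 went from 147, 138 and 108 CPM to 429 and 451 CPM (1.76 ± 0.23), and Abca1 from 160, 145 and 152 CPM to 411 and 373 CPM (1.36 ± 0.21). Npc2, which moves cholesterol out of lysosomes, passed the adjusted p (0.0408) but not the fold limit (0.95 ± 0.25).

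The 4 genes of the Apoe cluster rose together. They lie in a span of 27.6 kb on the minus strand of chromosome 7 (GRCm38, GENCODE vM21): Apoc2 at chr7:19671579-19677941, Apoc4 at chr7:19678083-19681479, Apoc1 at chr7:19689481-19692660 and Apoe at chr7:19696109-19699188. Apoc1, an inhibitor of lipoprotein uptake, was at 2.26, 2.45 and 2.21 CPM in NI and at 61.3 and 72.4 CPM in HS, the smallest adjusted p of the named genes (4.58 ± 0.23, adjusted p = 6.87e-11). Apoc2, the activator of Lpl, was at 2.50, 4.12 and 5.37 CPM and at 40.6 and 46.0 CPM (3.33 ± 0.29). Apoc4 was at 0.238, 0.257 and 0.576 CPM, near the floor, and at 8.17 and 9.86 CPM (3.49 ± 0.32). Since 141 bases separate Apoc2 from Apoc4, reads that run between them cannot be assigned with certainty. Apoe itself, the main carrier of cholesterol in the central nervous system, stood at 508, 939 and 283 CPM in NI and at 15505 and 3142 CPM in HS (3.76 ± 0.87, adjusted p = 0.0172). The HS libraries differed 4.93-fold and the NI libraries 3.31-fold for Apoe, and its call was lost without HS replicate 1 (adjusted p = 0.356), NI replicate 3 (0.089) or NI replicate 1 (0.0521).

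Interferon-stimulated genes were the list with the most DE members. Of 44 genes, 28 were DE and higher, against 1.7% of all genes, and 0 were lower. In both HS libraries 41 lay above all NI values, where 20.2% of all genes did. Their median change was 1.55, and the summed level of the list was 1448 to 1709 CPM in NI and 4331 and 4456 CPM in HS. Isg15, a ubiquitin-like modifier, was at 8.88, 9.91 and 11.1 CPM in NI and at 49.2 and 48.0 CPM in HS (2.23 ± 0.22, adjusted p = 1.85e-06). Irf7, the factor that amplifies type I interferon production, was at 20.8, 20.8 and 14.6 CPM and at 134 and 93.2 CPM (2.56 ± 0.32). Oasl2, of the oligoadenylate synthetase family, was at 13.8, 9.39 and 8.92 CPM and at 91.8 and 73.4 CPM (2.91 ± 0.31), the largest change in the list, and the nucleic acid sensor Zbp1 was at 2.06 to 2.69 CPM in NI and at 18.7 and 20.3 CPM in HS (2.78 ± 0.30). In each of these genes both HS libraries lay far above the highest NI library.

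Ifit3, which binds viral RNA complexes, was at 16.3, 9.52 and 9.40 CPM and at 62.4 and 55.3 CPM (2.32 ± 0.38). Mx1, a dynamin-like antiviral GTPase, was at 15.02 to 17.9 CPM in NI and at 63.6 and 59.5 CPM in HS (1.90 ± 0.30), and Usp18, which removes Isg15 from proteins and damps the receptor, was at 14.2 to 23.4 CPM and at 82.5 and 91.5 CPM (2.22 ± 0.38). Oas1a (2.47), Ifi27l2a (2.40), Lgals3bp (2.27), Ifitm3 (2.13), Oas2 (2.09), Ifi204 (2.04), Oasl1 (2.01), Rtp4 (1.87), Bst2 (1.74), Slfn5 (1.62) and Eif2ak2 (1.48) were DE as well. The signalling factors changed less. Stat2 was at 47.0, 40.2 and 42.3 CPM and at 93.7 and 86.1 CPM (1.05 ± 0.21). Irf9 was at 83.8 to 98.7 CPM in NI and 99.8 and 117 CPM in HS (0.25 ± 0.21, adjusted p = 0.736), and Trim30a at 115 to 137 CPM and at 228 and 212 CPM (0.82 ± 0.24, adjusted p = 0.0803). Stat2 lost its call when either HS library was left out (adjusted p = 0.0995 and 0.0529).

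Ifit1 (2.02) and Ifit2 (2.65), of the same family as Ifit3, lost their calls without HS replicate 1 (adjusted p = 0.0721 and 0.0599), and Rsad2, also called viperin (1.83), without HS replicate 2 (0.131). Sp100 (1.64), the sensor Dhx58 (1.40), Slfn2 (1.16) and Xaf1 (1.03) were also DE, and each was lost without HS replicate 1 (0.059 to 0.102), Sp100, Dhx58 and Xaf1 without HS replicate 2 (0.0529 to 0.373), and Xaf1 without NI replicate 1 or 2 (0.0908 and 0.145).

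The interferons themselves and their receptors did not pass: of 15 genes for ligands, receptors and kinases 0 were DE in limma and in the edgeR and DESeq2 tests. In 2 of them the unadjusted p was under 0.05, against 12.8% of all genes, and the median was -0.035. The only interferon gene of the list in the table was Ifnb1, which encodes interferon beta, so other interferons were not assessed. Ifnb1 was at 2.32, 2.32 and 3.45 CPM in NI and at 14.7 and 18.9 CPM in HS, without overlap, at an adjusted p of 0.183 (2.44 ± 0.89). In a fit of the 2 groups alone its adjusted p was 4.66e-05. Ifngr1, the gene of an interferon gamma receptor subunit, was at 862 to 1144 CPM in NI and at 664 and 750 CPM in HS (-0.44 ± 0.24, adjusted p = 0.492).

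The DNA element bound by the complex of Stat2 and Irf9 was searched as the letters GAAANNGAAA on both strands, with overlapping matches kept, in promoter windows from 250 bases before to 50 bases after the gene start (RefSeq, GRCm38.p6). It was present in 3.44% of all 32851 promoters and in 3.09% of the 15466 promoters of genes in the table. Among interferon-stimulated genes that were DE it was present in 11 of 21 promoters (52.4%), and among those that were not DE in 8 of 16 (50%). Of the 205 promoters of higher DE genes outside the list, 15 (7.32%) held it. The share was thus alike in listed genes that passed and that did not pass the test. Those that did not pass are no unchanged group, since 41 of the 44 listed genes lay above all NI values (20.2% of all genes). The 2 shares therefore cannot tell whether the element goes with the rise. Not shown are the promoters of Stat2, Slfn5 and Rsad2, all DE, and of further listed genes that were not DE, which also held the element before the gene start. The windows below show the element in promoters of 6 other DE genes and of Trim30a, which was not DE. They are written 5′ to 3′ in the direction of the gene, in lower case with the element in capitals, and an element on the opposite strand of the gene appears as its reverse complement.

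Isg15, chr4:156200855-156200916, minus strand: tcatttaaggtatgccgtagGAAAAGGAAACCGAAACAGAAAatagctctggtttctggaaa
Ifit1, chr19:34640765-34640833, plus strand: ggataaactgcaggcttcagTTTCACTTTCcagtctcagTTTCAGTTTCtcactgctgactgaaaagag
Ifit3, chr19:34583353-34583436, plus strand: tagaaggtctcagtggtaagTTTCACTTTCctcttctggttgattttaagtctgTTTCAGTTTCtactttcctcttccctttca
Oas1a, chr5:120907526-120907565, minus strand: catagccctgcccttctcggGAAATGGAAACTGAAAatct
Bst2, chr8:71537567-71537622, minus strand: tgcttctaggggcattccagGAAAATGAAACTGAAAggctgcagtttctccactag
Cxcl10, chr5:92349073-92349122, minus strand: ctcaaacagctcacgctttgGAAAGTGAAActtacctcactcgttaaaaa
Trim30a, chr7:104465200-104465249, minus strand: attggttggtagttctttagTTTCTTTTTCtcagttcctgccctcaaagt

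In Isg15 3 overlapping matches formed 1 run, and Ifit1, Ifit3, Oas1a and Bst2 held 2 matches each. A match describes the letters and is neither a site of binding nor a cause of the change. Oas1a, Ifit1 and Ifit3 have close relatives with which reads may be shared, and the same holds for Ifitm3, Lyz1, Lyz2, C4b and Saa3, so that their values are less certain.

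Chemokine ligands split. Of 22 genes, 6 were DE and higher and 1 was lower, against 1.7% and 0.482% of all genes, and the median was 0.973. The count of higher genes was 3 without HS replicate 1. The B cell attractant Cxcl13 was at 0.238, 0.386 and 0.288 CPM in NI, at or next to the floor, and at 14.3 and 15.8 CPM in HS (4.27 ± 0.35, adjusted p = 8.15e-08). Ccl5, which attracts T cells and monocytes, was at 7.69, 10.3 and 10.9 CPM and at 47.5 and 56.1 CPM (2.38 ± 0.29), and Cxcl10, a ligand of Cxcr3, was at 14.9, 12.4 and 17.1 CPM and at 63.0 and 95.9 CPM (2.37 ± 0.38). All HS values were above all NI values in these genes. Cxcl16 (1.39) lost its call without HS replicate 1 (adjusted p = 0.0533) and Ccl22 (1.83) when either HS library was left out (0.0555 and 0.0524). Cxcl9 (1.30) did so without any library except NI replicate 2 (0.0877 to 0.23). Pf4, a chemokine of platelets and of some tissue macrophages, fell from 50.9, 52.3 and 65.9 CPM to 20.02 and 23.8 CPM (-1.34 ± 0.27), a call lost without HS replicate 1 (adjusted p = 0.109). The abundant Ccl3 and Ccl4 did not pass: Ccl4 was at 765, 1178 and 1528 CPM in NI and at 2037 and 2691 CPM in HS (1.07 ± 0.53, adjusted p = 0.408), and Ccl3 had an adjusted p of 0.348.

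Among 33 cytokines, receptors and inflammasome genes, 3 were DE and higher, against 1.7% of all genes, and 0 were lower (median 0.54). Il1rn, the antagonist of the interleukin-1 receptor, was at 7.33, 10.04 and 8.15 CPM and at 45.1 and 38.4 CPM (2.24 ± 0.37). Il2rg, the receptor chain shared by the interleukin-2 family, was at 25.1, 23.3 and 23.2 CPM and at 110 and 118 CPM (2.23 ± 0.31), and Tlr2, a receptor for lipoproteins of bacteria, was at 186, 168 and 159 CPM and at 541 and 469 CPM (1.56 ± 0.22). The classical inflammatory cytokines gave no call. Il1b was at 46.0, 65.2 and 82.1 CPM in NI and at 250 and 300 CPM in HS (2.12 ± 0.79, adjusted p = 0.204), and Tnf at 64.5 to 74.3 CPM and at 182 and 210 CPM (1.46 ± 0.76, adjusted p = 0.449). In both the HS values lay above all NI values. In a fit of the 2 groups alone both passed (adjusted p = 2.94e-05 and 3.59e-05), and the list had 8 of the 393 higher DE genes of that fit.

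Of 23 complement genes, 3 were DE and higher, against 1.7% of all genes, 0 were lower, and the median was 0.34. C3, the central component on which all activation routes meet, was at 6.20, 7.46 and 6.91 CPM in NI and at 75.6 and 64.6 CPM in HS (3.26 ± 0.23, adjusted p = 1.35e-08). Cfb, the protease component of the alternative route, was at 2.44, 1.54 and 1.53 CPM and at 18.8 CPM in both HS libraries (3.06 ± 0.46). C4b, of the classical route, was at 20.4, 17.4 and 13.6 CPM and at 69.7 and 52.8 CPM (1.81 ± 0.35), and lost its call without HS replicate 1 (adjusted p = 0.101). Saa3, an acute-phase apolipoprotein and 1 of the 15 largest rises, went from 0.298, 0.386 and 0.288 CPM to 10.8 and 16.0 CPM (4.05 ± 0.56).

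Matrix, integrin and proteolysis genes followed with 14 of 34 DE and higher (1.7% of all genes), 1 lower (0.482%) and a median of 0.842. Fn1, the gene of fibronectin, was at 13.5, 13.9 and 11.4 CPM in NI and at 405 and 362 CPM in HS (4.84 ± 0.33, adjusted p = 6.36e-09). Plaur, the receptor of urokinase, was at 15.3, 22.01 and 19.0 CPM and at 116 and 110 CPM (2.57 ± 0.29), and Cd44, the hyaluronan receptor, was at 13.05, 14.2 and 14.5 CPM and at 53.1 and 47.3 CPM (1.81 ± 0.27). Itga4, an integrin subunit used in leukocyte entry, was at 11.1, 14.4 and 18.3 CPM and at 44.9 and 49.3 CPM (1.68 ± 0.26). The count of higher genes was 7 without HS replicate 1 and 9 without HS replicate 2. The proteases Adam8 (2.08) and Plau (1.503) lost their calls without HS replicate 1 (adjusted p = 0.0586 and 0.0918), and the matrix protein Ecm1 (2.17) and the elastase Mmp12 (1.90) when either HS library was left out (0.0525 to 0.0785). Thbs1, Lgals1 and Sdc3 were DE too and were lost when either HS library was left out (0.0599 to 0.238), Thbs1 and Lgals1 without NI replicate 2 (0.113 and 0.126) and Thbs1 without NI replicate 3 (0.131). The lower gene was the syndecan Sdc2, from 9.12, 5.02 and 4.51 CPM to 0.953 and 1.56 CPM (-1.89 ± 0.42), which was not DE without NI replicate 1, HS replicate 1 or HS replicate 2 (0.0725, 0.196 and 0.0547).

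Scavenger, lectin and Fc receptors held 9 higher and 0 lower DE genes of 38 (median 0.477), against 1.7% and 0.482% of all genes. Lilrb4, an inhibitory immunoglobulin-like receptor, was at 31.5, 42.2 and 34.9 CPM in NI and at 282 and 269 CPM in HS (2.92 ± 0.30, adjusted p = 1.99e-06). Cd300lf, a receptor for lipids, was at 6.49, 5.41 and 4.89 CPM and at 32.8 and 34.2 CPM (2.49 ± 0.26), and Cd22, a sialic acid lectin known from B cells, was at 18.8, 14.8 and 11.6 CPM and at 78.2 and 62.1 CPM (2.20 ± 0.30). Cd300lb (1.93) was lost without HS replicate 1 (adjusted p = 0.153), and Colec12 (1.28) without any 1 library except NI replicate 3 (0.0509 to 0.154). The activating receptor Fcgr4 was at 17.0 to 29.6 CPM and at 58.3 and 72.2 CPM (1.58 ± 0.26). Of 22 growth factor genes 5 were DE and higher, against 1.7% of all genes, and 0 lower, with Igf1 far ahead. Csf1, the growth factor on which microglia depend, was at 28.7, 46.7 and 42.1 CPM and at 173 and 145 CPM (2.03 ± 0.31), the binding protein Igfbp6 was at 1.15 to 2.09 CPM and at 6.54 and 7.58 CPM (1.97 ± 0.29), and the coreceptor Nrp1 was at 181 to 272 CPM and at 502 and 484 CPM (1.22 ± 0.20). Grn, the gene of progranulin, was at 1571 to 1766 CPM in NI and at 3689 and 3291 CPM in HS (1.09 ± 0.29), and was lost without any 1 of the 5 libraries (adjusted p of 0.0864 to 0.307).

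Of 40 lysosome genes, 6 were DE and higher, against 1.7% of all genes, and 0 were lower, with a median of 0.581. Gpnmb, Cst7 and Cd63 were the members that passed without exception, and the count was 3 when either HS library was left out and 4 without any 1 NI library. Iron and redox genes held 5 higher DE members of 30, and 3 without HS replicate 2. Gpx3, a secreted glutathione peroxidase, was at 5.06, 4.12 and 3.07 CPM in NI and at 40.6 and 38.4 CPM in HS (3.15 ± 0.23, adjusted p = 1.4e-08). Hmox1, which degrades heme, was at 72.3, 32.7 and 27.1 CPM and at 192 and 507 CPM (2.94 ± 0.71, adjusted p = 0.0229), with a gap between the HS libraries as between the NI libraries, and was not DE without NI replicate 2 (0.0953), NI replicate 3 (0.0996) or HS replicate 2 (0.391). The lysozyme Lyz1 was at 115 to 140 CPM and at 345 and 452 CPM (1.59 ± 0.26), while Lyz2 (1.75) was lost without HS replicate 2 (0.0506) and the oxidase subunit Cybb (1.42) without HS replicate 1 (0.0538).

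In the glycolysis list 2 of 18 genes were DE, against 2.18% of all genes. The regulator Hif1a was at 55.1, 45.9 and 50.9 CPM and at 103 and 108 CPM (1.05 ± 0.17), and fell short of the fold limit without NI replicate 2 (0.98). Pkm, a pyruvate kinase (1.07 ± 0.29, adjusted p = 0.0495), was lost without any 1 of the 5 libraries (0.102 to 0.382). The list had 0 DE genes when columns were scaled to the same total. Of 41 cell cycle genes only Cdk1, the kinase of mitotic entry, was DE, where 2.18% of all genes were, and the median was 0.287. Cdk1 was at 5.06, 6.18 and 5.18 CPM in NI and 17.4 and 16.1 CPM in HS (1.54 ± 0.25, adjusted p = 0.000669). Immediate-early and heat-shock genes, which can respond to warm dissociation, held 0 DE genes of 19 and of 16 in limma and in the edgeR and DESeq2 tests. In each list 1 gene had an unadjusted p under 0.05, against 12.8% of all genes, and the medians were -0.079 and -0.214. Both HS values lay below all NI values in 9 of the 16 heat-shock genes, where 17.1% of all genes did, and above in 2 (20.2% of all genes).

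Of 25 homeostatic microglia genes, with a median of -0.204, 1 was DE and lower, against 0.482% of all genes, and 0 were higher, against 1.7%. In 13 of them both HS values lay below all NI values, where 17.1% of all genes did, and in 4 above (20.2% of all genes). The lower DE gene was Slc2a5, the fructose carrier that marks microglia, at 609, 479 and 438 CPM in NI and at 199 and 194 CPM in HS (-1.36 ± 0.26, adjusted p = 0.00412), a call lost when either HS library was left out (0.0615 and 0.0679). Tmem119 was at 1196, 1263 and 1257 CPM and at 632 and 648 CPM, an adjusted p of 0.0343 at less than 2-fold (-0.95 ± 0.24). P2ry12 was at 5085, 3845 and 3739 CPM and at 2346 and 1861 CPM (-1.0 ± 0.38, adjusted p = 0.221), and passed after quantile normalization (0.0231), when columns were scaled to the same total (0.0419) and in a fit of the 2 groups alone (0.0143). The list had 6 lower DE genes after quantile normalization, with a median of -0.641, and 4 with columns scaled to the same total. Cst3, an abundant cathepsin inhibitor, was at 19555 to 24794 CPM in NI and at 12414 and 16285 CPM in HS (-0.63 ± 0.40, adjusted p = 0.578).

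Antigen presentation genes gave 1 call in each class, where 2.18% of all genes were DE. Nlrc5, the activator of the class I genes, was at 10.5, 11.97 and 10.2 CPM and at 31.9 and 30.9 CPM (1.49 ± 0.22, adjusted p = 0.000311), the sole DE gene of 16. In 13 of the 16 class I genes both HS values lay above all NI values, where 20.2% of all genes did, and the median was 0.601. H2-K1 was at 442 to 473 CPM in NI and at 801 and 883 CPM in HS (0.88 ± 0.24, adjusted p = 0.0544), and B2m had an adjusted p of 0.545. Of 15 class II and costimulation genes the DE one was Cd274, the ligand PD-L1 that restrains T cells, at 14.2, 16.3 and 12.2 CPM and at 40.8 and 44.6 CPM (1.56 ± 0.28). Cd74, the invariant chain, was at 1393 to 1534 CPM in NI and at 958 and 905 CPM in HS (-0.66 ± 0.44, adjusted p = 0.607).

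**Figure D3:**
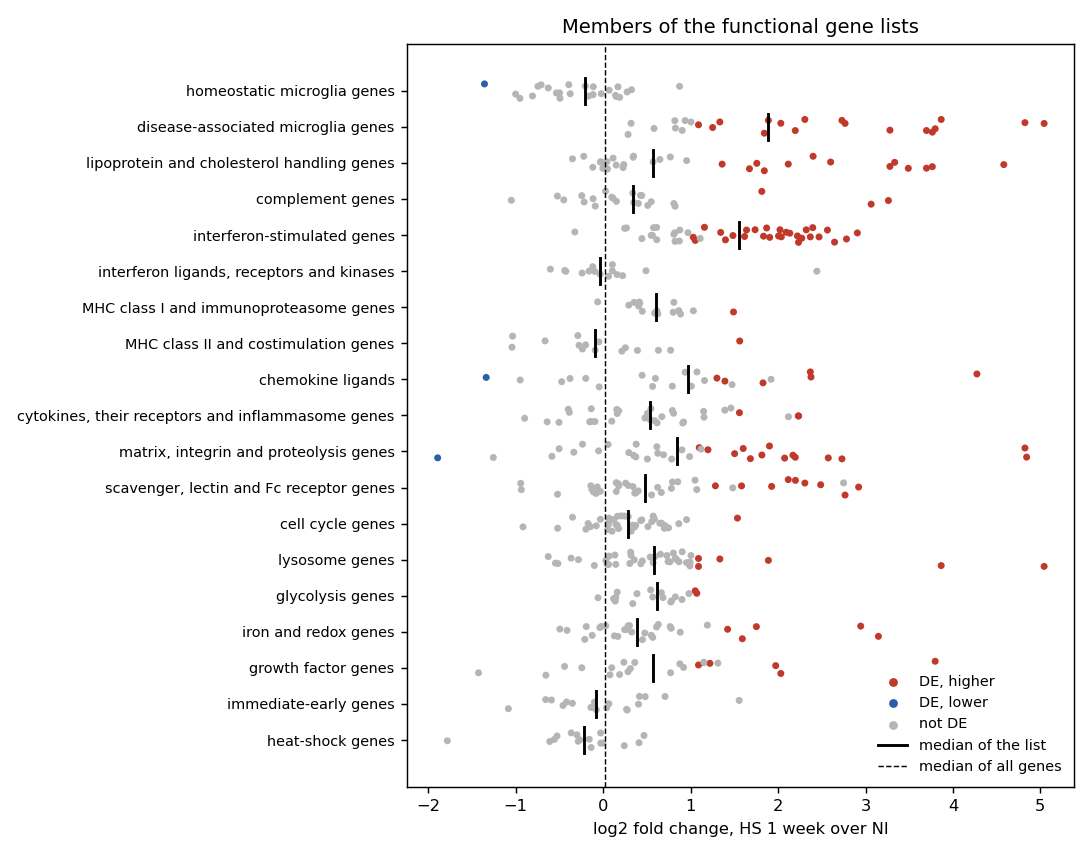
Log2 change of HS 1 week over NI for each member of the 19 lists of gene functions, with DE members coloured, the median of each list as a bar and the median of all genes (0.022) as a dashed line. Disease-associated and interferon-stimulated genes lie furthest to the right (medians 1.89 and 1.55), while the homeostatic list has a median of -0.204.

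The falls were led by genes that astrocytes express. Of the 22 genes of the astrocyte list, 11 were DE and lower, against 0.482% of all genes, and 0 were higher. The median was -1.48, and 18 lay below all NI values in both HS libraries, where 17.1% of all genes did. Since its members were chosen with earlier results of these data known, counts above these shares are no independent support. The list also held 7 of the 15 largest falls. The summed level of the list was 1175, 845 and 654 CPM in NI and 401 and 378 CPM in HS. Gpm6a, a membrane glycoprotein of neural cells, was at 19.2, 12.4 and 8.73 CPM in NI and at 1.23 and 1.44 CPM in HS (-2.86 ± 0.54, adjusted p = 0.00309). Atp1b2, a subunit of the sodium pump, was at 90.5, 55.1 and 28.6 CPM and at 8.85 and 6.50 CPM (-2.71 ± 0.64). Slc1a2, the main glutamate carrier, was at 152, 99.9 and 87.4 CPM and at 25.7 and 24.4 CPM (-2.11 ± 0.52). The channel proteins Gjb6 (-2.44) and Gja1 (-2.16) of astrocyte gap junctions, Itih3 (-2.28), the bicarbonate carrier Slc4a4 (-1.64), Ttyh1 (-1.42), the receptor Fgfr3 (-1.38) and the neurotensin receptor Ntsr2 (-2.08) were further members of the 11.

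The NI libraries themselves differed in these genes: in all 11, NI replicate 1 was the highest and NI replicate 3 the lowest of the NI libraries, as in 13 of the 15 largest falls. The count of lower DE astrocyte genes was 2 without HS replicate 1, 3 without HS replicate 2, 5 without NI replicate 1, 7 without NI replicate 2 and 10 without NI replicate 3. Each of the 11 was lost when at least 1 of the HS libraries was left out, at adjusted p of 0.0599 (Ttyh1) to 0.243 (Ntsr2). The part of a changing share of astrocyte material in the sorted cells was not tested, and in bulk libraries fewer cells of a type and less RNA per cell cannot be told apart. Acsl6, a fatty acid ligase outside the list, was the 1 of the 15 largest falls whose call held under all 17 alternatives, at 22.1, 11.3 and 8.25 CPM and at 2.59 and 1.56 CPM (-2.39 ± 0.39, adjusted p = 0.000669).

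The matrix protein Sparcl1 (-2.33), the adhesion protein Hepacam (-2.21), the protease Htra1 (-2.11), the potassium channel Kcnj16 (-2.11) and Cldn10 (-2.10) were also among the 15. Each was lost when at least 1 HS library was left out, at adjusted p of 0.082 to 0.285, and Sparcl1 and Htra1 also without NI replicate 1 or 2 and Htra1 without NI replicate 3 (0.063 to 0.17). Of 8 reactive astrocyte genes, 3 were DE and higher, against 1.7% of all genes, 0 were lower and 5 did not pass. The 3 were Serpina3n, a secreted protease inhibitor, from 2.68, 0.386 and 0.959 CPM to 14.98 and 10.7 CPM (3.04 ± 0.77), the intermediate filament Vim, from 22.4, 25.2 and 19.1 CPM to 65.5 and 66.4 CPM (1.56 ± 0.31), and the filament Nes (1.36). None of these was DE when either HS library was left out, at adjusted p of 0.0717 to 0.255, and Serpina3n was not without NI replicate 2 or 3 (0.17 and 0.0969). Gfap was at 52.6, 54.6 and 28.3 CPM in NI and at 92.5 and 71.0 CPM in HS (0.89 ± 0.37, adjusted p = 0.27), and Aldoc at 231, 169 and 111 CPM and at 42.2 and 50.04 CPM (-1.81 ± 0.54, adjusted p = 0.0862).

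**Figure D4:**
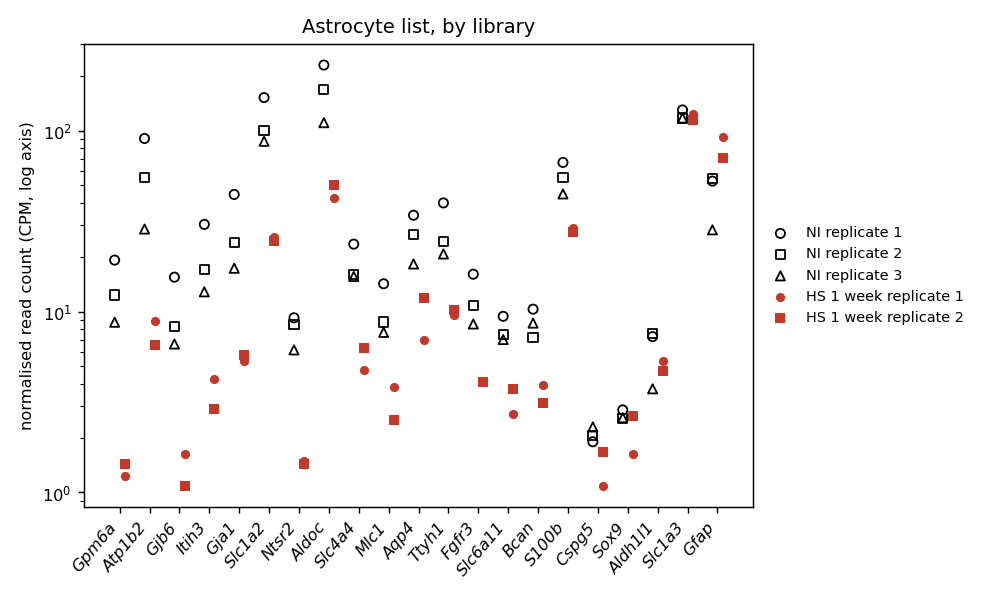
Normalised read count (CPM, log axis) of 21 of the 22 astrocyte list genes in the 3 NI (open) and 2 HS 1 week libraries (red), ordered by their change. Most HS values lie below the NI values, NI replicate 1 is mostly the highest of NI, and Gfap at the right end is higher in HS (71.0 and 92.5 CPM against 28.3 to 54.6 CPM).

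Lists of other cell types, which a gate on eGFP-high cells should remove, held few calls, but just 2.18% of all genes were DE. Their counts therefore do not show how much of this material the sort removed. Of 15 oligodendrocyte genes 0 were DE in limma, edgeR and DESeq2, and 4 had an unadjusted p under 0.05, against 12.8% of all genes. Their median was -1.05, with summed levels of 3342 to 5779 CPM in NI and 4412 and 5848 CPM in HS. In a fit of the 2 groups alone 8 were DE and lower, among 259 lower DE genes of that fit. Mbp, a myelin gene, was at 486 to 868 CPM in NI and at 1394 and 844 CPM in HS (0.65 ± 0.59, adjusted p = 0.749). Of 14 neuron genes 0 were DE in limma (median -0.507), but 7 had an unadjusted p under 0.05, against 12.8% of all genes. The edgeR tests and DESeq2 each called 1, Snap25, which was at 39.4, 28.1 and 21.7 CPM and at 8.31 and 8.06 CPM (-1.76 ± 0.48, adjusted p = 0.0544 in limma). The precursor marker Cspg4, which encodes the proteoglycan NG2, was the 1 DE gene of 8 in its list, from 2.50, 3.35 and 2.78 CPM to 20.97 and 24.3 CPM (2.78 ± 0.41, adjusted p = 0.00024). The other members mostly went the other way: only 2 of the 8 changes were positive and the median was -0.297. In 4 of the 8 both HS values lay below all NI values, where 17.1% of all genes did. Of 12 endothelial genes only Pecam1 was DE, from 17.3, 17.0 and 13.6 CPM to 4.08 and 6.62 CPM (-1.52 ± 0.30), and it was lost without HS replicate 1 (adjusted p = 0.175). Fibroblast (8), neutrophil (12) and lymphocyte (16) genes and the 2 erythroid genes in the table held 0 DE genes in limma, edgeR and DESeq2, with 2 genes of these lists at an unadjusted p under 0.05.

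Monocyte and macrophage genes held 1 higher (Itga4) and 1 lower DE gene of 18, against 1.7% and 0.482% of all genes, with a median of 0.821. In 11 of the 18 both HS values lay above all NI values, where 20.2% of all genes did. In a fit of the 2 groups alone 6 were DE and higher, among 393 higher DE genes of that fit. The lower one, Emr4 (-1.17), was lost without any 1 library except NI replicate 3 (adjusted p of 0.0606 to 0.433). Ccr2, the receptor of monocyte recruitment, was at 14.6, 20.1 and 19.3 CPM in NI and at 37.7 and 17.1 CPM in HS, so that the groups overlapped (0.50 ± 0.50, adjusted p = 0.782). Emr1 was at 540, 385 and 331 CPM and at 683 and 505 CPM (adjusted p = 0.625). Arg1, at 1.29 to 1.63 CPM in NI and at 8.85 and 5.53 CPM in HS, did not pass (1.96 ± 0.68, adjusted p = 0.153).

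Macrophages of the meninges and vessels gave 2 higher and 3 lower DE genes of 10, against 1.7% and 0.482% of all genes. Folr2, a folate receptor, was at 3.87, 8.62 and 6.91 CPM in NI and at 25.7 and 27.3 CPM in HS (2.02 ± 0.36, adjusted p = 0.00165), and Siglec1 (1.41) was lost when either HS library was left out (0.0717 and 0.0822). The hyaluronan receptor Lyve1 fell from 12.1, 13.5 and 11.99 CPM to 2.86 and 3.85 CPM (-1.77 ± 0.35) and the reductase Cbr2 from 18.6, 22.01 and 21.6 CPM to 5.58 and 7.58 CPM (-1.60 ± 0.31), with Pf4 as the third. Without HS replicate 1 the list held 1 higher and 0 lower DE genes, since all 3 falls lost their calls (adjusted p of 0.109 to 0.117). Mrc1, the mannose receptor, was at 53.7 to 69.5 CPM and at 34.9 and 27.5 CPM, an adjusted p of 0.0203 at less than 2-fold (-0.94 ± 0.22).

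The lists cover 119 of the 367 DE genes, and 248 DE genes were in none. Among the latter, named after their values were seen, were Cd72, a lectin-like receptor of B cells and macrophages, at 38.6, 30.0 and 23.7 CPM in NI and at 206 and 239 CPM in HS (2.86 ± 0.34, adjusted p = 1.91e-05), and Pdcd1, which encodes the checkpoint receptor PD-1, at 31.1, 26.9 and 18.8 CPM and at 130 and 104 CPM (2.19 ± 0.36, adjusted p = 0.000703). Both HS values lay far above all NI values in each. With Cd274, both the PD-1 receptor gene and a gene of its ligand were thus DE and higher.

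Direct tests placed HS at 1 week beside the other stages and the other severity. Against HS at 72 h, 1013 genes (6.03%) were DE, 328 (1.95%) higher and 685 (4.07%) lower at 1 week. The higher genes numbered 52 without HS 1 week replicate 2, 115 without HS 72 h replicate 1, 166 without HS 1 week replicate 1 and 207 without HS 72 h replicate 2, and the lower genes 390 to 903 with 1 library left out. The cell cycle list held 39 lower DE genes of 41, with a median of -3.09. Mki67, a marker of dividing cells, was at 140, 83.0 and 108 CPM at 72 h and at 10.2 and 10.1 CPM at 1 week (-3.34 ± 0.21, adjusted p = 1.85e-09), and Rrm2, of nucleotide synthesis, was at 289, 152 and 108 CPM and at 6.40 and 5.29 CPM (-4.74 ± 0.35). Cdk1, although DE against NI, was likewise lower than at 72 h, where it was at 142, 121 and 82.2 CPM (-2.71 ± 0.25). The antioxidant genes Txn1 (-1.67 ± 0.22) and Gpx1 (-1.44 ± 0.23) and the galectin Lgals1 (-2.49 ± 0.29) were also lower at 1 week.

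Other genes were higher at 1 week than at 72 h. Cxcl13 was at 1.06, 1.41 and 0.410 CPM at 72 h and at 14.3 and 15.8 CPM at 1 week (3.48 ± 0.35, adjusted p = 8.93e-07). C3 was at 13.8, 16.8 and 14.8 CPM and at 75.6 and 64.6 CPM (2.18 ± 0.23), Ccl5 at 11.5, 13.2 and 10.9 CPM and at 47.5 and 56.1 CPM (2.08 ± 0.29), and Itgax at 10.4, 28.7 and 27.1 CPM and at 71.9 and 71.6 CPM (1.81 ± 0.31). None of the values at 72 h reached those at 1 week in these 4 genes, a separation upwards that 24.8% of all genes showed. The 4 were named as DE on these values, so the separation is no further support. The interferon list held 3 higher DE genes of 44 in this comparison, against 1.95% of all genes, with a median of 0.285. When columns were scaled to the same total, 72.8% of the DE genes were higher at 1 week, against 32.4% here, and the median of all genes was 0.327 in place of 0.07.

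At 2 weeks only 2 genes (0.0119%) were DE against 1 week, and 789 (4.69%) had an unadjusted p under 0.05. Postn, the matrix protein periostin, was at 11.2 and 9.98 CPM at 1 week and at 35.9, 52.4 and 34.1 CPM at 2 weeks (1.87 ± 0.27, adjusted p = 0.0094), and at 6.18 to 6.97 CPM in NI. Serpinb7, of the serpin family, was at 3.68 and 3.01 CPM and at 0.468, 0.214 and 0.362 CPM (-2.19 ± 0.35, adjusted p = 0.0322), values of a few reads at 2 weeks. It was not DE when any 1 of the 5 libraries was left out (adjusted p of 0.0549 to 0.462), nor with 0.1 CPM added, in a fit of the 2 groups alone, with a replicate block, or in the quasi-likelihood test of edgeR and DESeq2 (0.0835 to 0.259). Postn was not DE without HS 1 week replicate 1 (0.0881), HS 1 week replicate 2 (0.462) or HS 2 weeks replicate 2 (0.113). Itgax was at 201, 145 and 153 CPM at 2 weeks, all above the 1 week values, and did not pass (1.19 ± 0.31, adjusted p = 0.557).

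Between the severities at 1 week, 0 genes were DE in limma, while 724 (4.31%) had an unadjusted p under 0.05, and 2269 did without FT 1 week replicate 1. The likelihood ratio test of edgeR called 8, DESeq2 called 7 and the quasi-likelihood test of edgeR 0. The smallest p was that of Gpx3, at 40.6 and 38.4 CPM in HS and at 83.1, 108 and 126 CPM in FT (1.39 ± 0.23, adjusted p = 0.081), which passed without FT 1 week replicate 1 (0.0249). It was followed by Folr2, at 25.7 and 27.3 CPM in HS and at 113, 77.1 and 110 CPM in FT (1.88 ± 0.36, adjusted p = 0.268). Apoc1 (1.13 ± 0.23), the macrophage gene Cd5l (1.83 ± 0.38) and Wfdc17 (1.15 ± 0.24) shared an adjusted p of 0.286 in limma. These 5 genes were among the calls of the likelihood ratio test (adjusted p of 0.00042 to 0.0353) and of DESeq2 (0.0002 to 0.0349). Gpx3 also passed in limma after quantile normalization (0.0321). In all 5 genes each FT library was above both HS libraries, as in 6.79% of all genes, but the 5 were picked by p from these values. A p that misses the threshold does not show that the 2 injuries gave the same values.

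**Figure D5:**
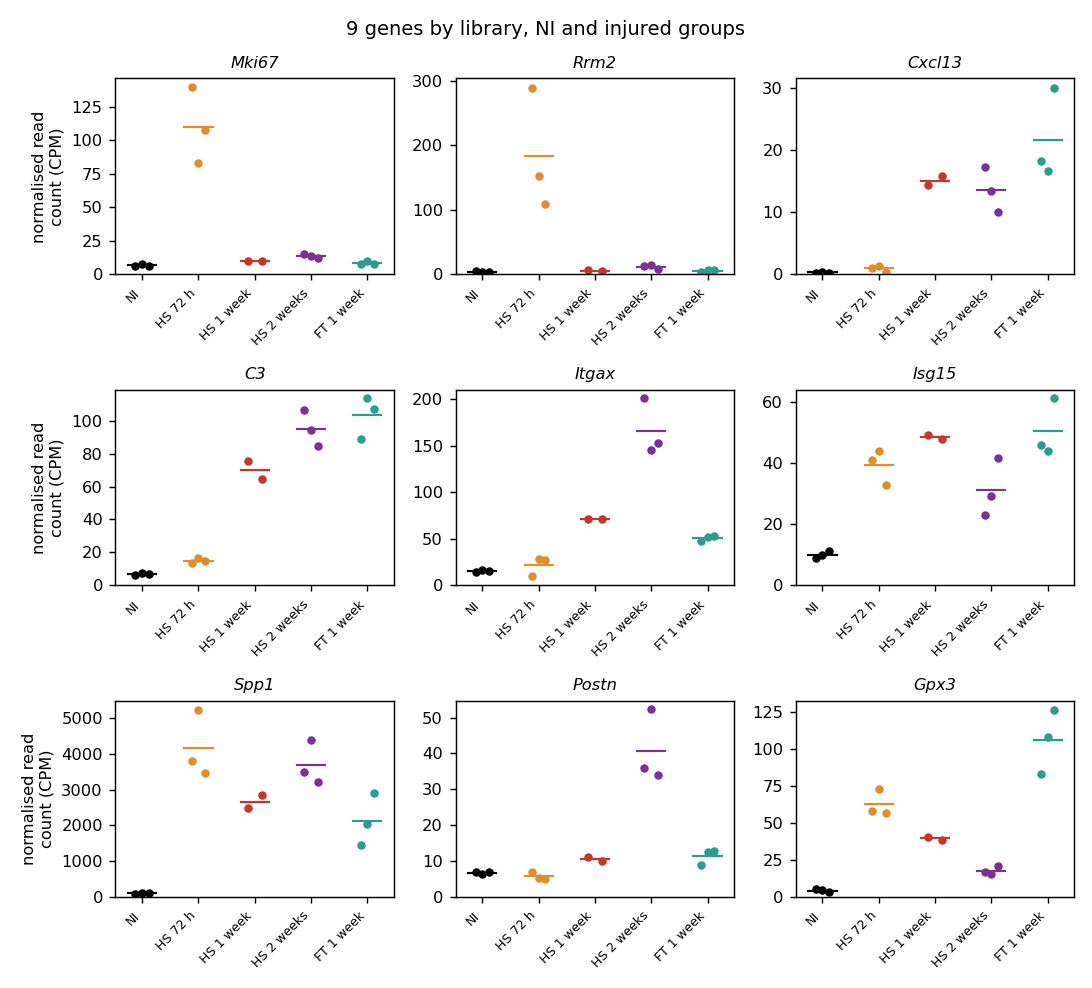
Normalised read count (CPM) of 9 genes in each NI, HS 72 h, HS 1 week, HS 2 weeks and FT 1 week library, with the group mean as a line. Mki67 and Rrm2 are high at 72 h alone, Cxcl13 and C3 are higher at 1 week than at 72 h, and Postn is highest at 2 weeks (34.1 to 52.4 CPM).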

How the data were processed

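RNA of eGFP-high cells was made into libraries with the Clontech SMARTer Ultra Low and Illumina Nextera kits. Per the labels, the authors used TopHat2 2.0.9, HTSeq 0.5.4p3 and edgeR 3.3.6 with mm10 (GRCm38), and the methods state a minimum of 10 reads in 2 replicates and library-size normalization; strand use and batches are not given in the sources used here. The deposited signal values, in CPM, were whole multiples of 1 step per column for all 336200 values (100%, tolerance 0.001 step), from which whole reads were recovered. The unit had been planned as unknown. 0 columns were left unused.

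The main fit was limma 3.58.1 on log2(CPM + 0.5) with an intensity trend, 1 mean per group over all 20 libraries and 7 groups. DE means at least 2-fold with a p below 0.05 after Benjamini-Hochberg adjustment across the 16810 genes. 17 alternatives were run, among them edgeR 4.0.16, DESeq2 1.42.0 (both fed the recovered reads) and the removal of each of the 5 libraries in turn. The fits were tested on simulated data. The 32 lists (19 of functions, 13 of cell types; 615 of 634 genes in the table) were written from general knowledge, and members and lists were chosen with earlier results of these data known.

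Named are the 15 largest rises and 15 largest falls with a mean of at least 5 CPM in 1 group, DE list members, the 2 most abundant members of a list that are not DE, the genes that check the sort, and in the other comparisons the 5 extremes in each direction and DE list members; with no DE gene, the 5 smallest p. Ifnb1, Il1b, Tnf, P2ry12, Tmem119, Cd72, Pdcd1 and, at 2 weeks, Serpinb7 were named after their values were seen, and so were the genes of the observations. Promoters (RefSeq) matched 12260 genes, and GENCODE vM21 15729 genes of the table by symbol. Replicates of each group differed by more than sampling noise (chi-square per degree of freedom 10.7 to 25.6). A few genes that the naming rule selects are not reported here.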

Additional observations from a re-analysis of the deposited data

Results flagged for a closer look

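Each result here differed in a direct test between stages of the same injury. HS 1 week and HS 72 h differed in 1013 DE genes. The 5 largest rises at 1 week were Cxcl13 (3.48), Mcpt2 (3.32), the heat-shock genes Hspa1b (2.86) and Hspa1a (2.73) and Tpsb2 (2.67). The 5 largest falls were the cell division genes Ccnb2 (-5.09), Rrm2 (-4.74), 2810417H13Rik (-4.72), Pbk (-4.68) and Nusap1 (-4.57). Hspa1b and Hspa1a, near-identical copies whose reads cannot be split with certainty, were at 1.72 and 4.69 CPM in HS 72 h replicate 1 and at 17.0 to 40.6 CPM in the other 72 h libraries, and neither was DE when any 1 library was left out except HS 72 h replicate 3 (adjusted p of 0.0516 to 0.223), nor with all libraries in the quasi-likelihood test of edgeR (0.0666 and 0.0565) or in DESeq2 (0.0983 and 0.0792).

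Among list members, C3 (2.18), Ccl5 (2.08), Itgax (1.81), Cxcl9 (1.78), Mx1 (1.24), Olr1 (1.196) and Nlrc5 (1.08) were higher at 1 week. Mki67 (-3.34), Cdk1 (-2.71), Lgals1 (-2.49), Cbr2 (-2.39), Txn1 (-1.67), Gpx1 (-1.44), Vim (-1.31), Pkm (-1.25), Gapdh (-1.204), Msr1 (-1.14) and Apoc2 (-1.09) were lower. Of these, Mx1, Olr1, Nlrc5, Vim, Pkm, Msr1, Apoc2 and Tpsb2 each lost the call in at least 1 fit without a library, at an adjusted p of up to 0.227 or a change under 2-fold. HS 2 weeks and HS 1 week differed in 2 DE genes, Postn (1.87) and Serpinb7 (-2.19). Groups of 2 or 3 libraries were too small for a check of single outlying libraries.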

How the results depend on the processing

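Of 128 DE genes named by the rule, 67 were DE under all 17 alternatives, and 47 of the other 61 were lost only when 1 library was left out; the cause of these changes was not tested. For HS 1 week against NI, 652 genes were DE in a fit of the 2 groups alone, 259 of them lower, and leaving out 1 library gave 166 to 306 DE genes, 144 to 257 higher and 22 to 64 lower. The lower genes numbered 158 after quantile normalization, 190 with columns scaled to the same total and 122 by the likelihood ratio test of edgeR. Against HS 72 h, 1604 genes passed with no fold limit and 545 to 1301 with 1 library left out. For HS 2 weeks against HS 1 week the count was 1 with 0.1 CPM added, with a replicate block and by the quasi-likelihood test, 6 by the likelihood ratio test, 5 by DESeq2 and 0 to 2 with 1 library left out. For FT against HS at 1 week it was 1 after quantile normalization, 8 by the likelihood ratio test, 7 by DESeq2 and 0 to 1 with 1 library left out. The change of Ccr2 ran from -0.059 without HS 1 week replicate 1 to 1.061 without HS 1 week replicate 2. A replicate block gave 336 DE genes against NI and 981 against HS 72 h; no source says what a shared number means, and deviations of same-numbered libraries of HS 1 week correlated over 8302 genes at 0.192 and -0.362 with NI, 0.268 and 0.559 with HS 72 h, 0.253 and 0.319 with HS 2 weeks and -0.191 and -0.542 with FT 1 week, so with 2 pairs each the numbers were not taken as a pairing. Depth limits genes within 3 reads of 0, and 2 HS libraries limit every call.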

Other observations

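Genes of mast cell proteases were among the DE genes outside the lists. Mcpt2 was at 0.358, 0.257 and 0.192 CPM in NI, a few reads a library, and at 5.45 and 7.10 CPM in HS 1 week (3.13 ± 0.58, adjusted p = 0.00287 in limma), and was lost without HS replicate 2 (0.0642). Tpsb2, a tryptase, was at 1.19, 0.129 and 0.192 CPM and at 8.31 and 4.33 CPM (2.85 ± 0.61), and was lost without HS replicate 1 (0.192) or NI replicate 2 (0.059). Cpa3, the mast cell carboxypeptidase, was at 0.477 to 0.515 CPM in NI and at 3.81 and 3.01 CPM in HS, and did not pass (adjusted p = 0.0539). It passed in 6 alternatives, with 1 CPM added, in a fit of the 2 groups alone, after quantile normalization, with columns scaled to the same total, with a replicate block and in the likelihood ratio test of edgeR (0.000861 to 0.049). These genes have close relatives whose reads may be shared, and the part of other sorted cells in these values was not tested.

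Of 78 genes of cytosolic ribosomal proteins, 7 were DE and higher, against 1.7% of all genes, and 0 lower. Their median was 0.727, with 76 positive changes. The translation factor genes Eef1a1, at 3621, 2880 and 2738 CPM in NI and at 6825 and 7356 CPM in HS (1.21 ± 0.32), and Eef2 (1.18 ± 0.27) were DE, as was the nucleolar gene Npm1 (1.18 ± 0.29). All 3 lost their calls when either HS library was left out (adjusted p of 0.0992 to 0.343), without NI replicate 2 or 3 (0.0683 to 0.154) and after quantile normalization, and Eef1a1 also without NI replicate 1 (0.0601).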
